A study of Mus musculus with 4 samples.

Results

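The SNARE, Munc18 and synaptotagmin genes were compared between CD8α+ and CD8α- dendritic cells of the mouse spleen. Members were taken by symbol: every probe set whose single gene symbol began with Stx, Stxbp, Vamp, Snap, Syt or Sytl and a digit, plus those of Sec22b. The rule found 121 probe sets of 52 genes, of 18193 genes that the 45037 probe sets other than controls named by a single symbol. They comprised 14 syntaxins, 8 R-SNARE genes (the Vamp genes and Sec22b), 4 Snap genes, 6 Stxbp genes, 16 synaptotagmins and 3 synaptotagmin-like genes. The remaining member, Snap91, shares the Snap symbol but encodes the clathrin adaptor AP180 and is no SNARE.

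Both groups came from spleens of C57BL/6 mice, with 2 arrays of CD8α+ dendritic cells and 2 arrays of CD8α- dendritic cells, measured on Affymetrix expression arrays. No treatment, age, sex or gene alteration is given in the sources used here, nor is the sorting of the cells. Nothing says that replicate arrays hold RNA of different mice, so every p-value below rests on array-to-array spread that could be purely technical. The comparison asks which of these genes differ in expression between the populations.

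SNARE proteins sit on vesicles and on target membranes and zip together to fuse them. Each compartment uses its own set of syntaxins, Snap proteins and R-SNAREs. Sec1/Munc18 proteins, which several Stxbp genes encode, clasp syntaxins and template their assembly, and synaptotagmins couple fusion to calcium. In dendritic cells these proteins move MHC molecules, internalized antigen and cytokines between the endoplasmic reticulum, the Golgi, endosomes, phagosomes and the cell surface. CD8α+ cells are known for cross-presentation, the display of internalized antigen on MHC class I, and Sec22b has been studied as a SNARE that brings proteins of the endoplasmic reticulum to phagosomes in that process.

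The CD8α- arrays differed more from each other than the CD8α+ arrays did. The median gap between replicates over 69 tested member probe sets was 0.23 log2 units for the CD8α+ pair and 0.62 for the CD8α- pair, against 0.22 and 0.68 over all 22519 tested probe sets. CD8α- replicate 2 was the dimmest array as deposited, and its 3′ to 5′ ratio for the Gapdh control was 10.7, against 1.53 to 2.02 on the other 3 arrays. The Actb control went the other way, with a ratio of 0.76 on that array, against 1.62 to 1.69 on the others. Defining markers followed the labels: Cd8a read 2014 and 2335 on the CD8α+ arrays, against 15.2 and 27.0, not above background, on the CD8α- arrays. Of 8 measured CD8α+ lineage markers 7 were higher in CD8α+ cells with no overlap between the groups, and Batf3 was lower. Of 7 CD8α- lineage markers 6 were lower in CD8α+ cells with no overlap, and Esam overlapped. Among the 6, Itgam was above background on no array, so its difference was not measured. All signals below are quantile normalized and are relative to the other genes on the array. Background is the brightest Bacillus control of each array, 30.8 and 21.8 on the CD8α+ arrays and 28.3 and 34.5 on the CD8α- arrays.

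The endosomal and Golgi fusion machinery was read above background in both populations, while most synaptotagmin probe sets were not. Of 52 genes, 23 had a probe set above background on all 4 arrays. They included all 5 endosomal and trans-Golgi syntaxins (Stx6, Stx7, Stx8, Stx12 and Stx16), all 3 syntaxins of the endoplasmic reticulum, Golgi and autophagosome (Stx5a, Stx17 and Stx18), 6 of 8 R-SNAREs and 3 of 4 Snap genes. Of the 16 synaptotagmins only Syt11 had such a probe set, and 22 of the 34 synaptotagmin probe sets were above background on no array. No probe set of the 3 synaptotagmin-like genes Sytl1, Sytl2 and Sytl4 exceeded background on more than 1 array. A signal below background sets only a bound, so these readings do not show that the genes are off. The share of all probe sets above background was not counted. The median probe set of the array had a mean signal of 23.0, within the range of background over the arrays.

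**Figure D1:**
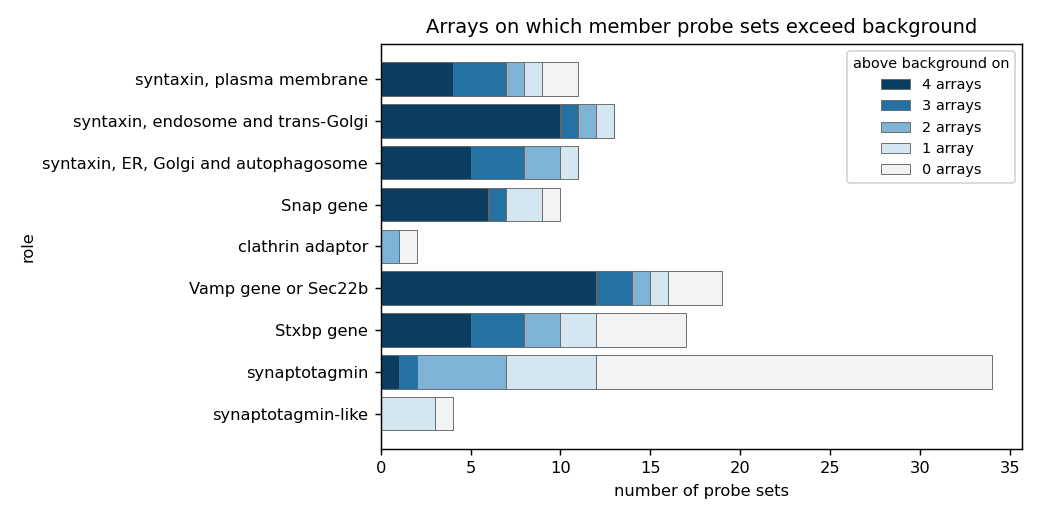
Number of member probe sets (horizontal axis) in each role, shaded by how many of the 4 arrays read them above background. Endosomal syntaxins had 10 of 13 probe sets above background on 4 arrays, and synaptotagmins had 1 of 34.

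Differences between the populations were about as frequent among these genes as among all genes. Of the 52 genes 33 had a probe set bright enough to test. At an adjusted p under 0.05 in limma, 0 member genes were called, as were 0 of all 10532 genes tested (percent called 0). At an unadjusted p under 0.05, 6 of 33 member genes were called, or 18.2%, where 16.9% of all genes were. Those higher in CD8α+ cells numbered 2, where 7.56% of all genes were, and those lower numbered 4, where 9.39% were. With trimmed mean scaling 0 member genes were called higher and 6 lower, where 681 and 1828 of all 10579 genes were. Stx2 (1.38) and Stx18 (0.55) stayed higher there but were not called. With median centring 11 members were called higher and 2 lower, where 3165 and 486 of all 10502 genes were. The groups did not overlap for 18 of the 33 genes, 7 higher and 11 lower in CD8α+ cells, where 53.9% of all genes did not overlap, 25.6% higher and 28.3% lower. The median difference was -0.036 over member genes and -0.019 over all genes, as log2 signal in CD8α+ minus CD8α- cells. In 4 of the 6 called genes (Stx2, Stx18, Snap91 and Syt10) the dimmer group lay below the signal required for testing. Those genes were thus tested only through their brighter group. With no filter 9 of 52 member genes were called, where 15.4% of all genes were. They were 2 higher and 7 lower, where 6.94% and 8.43% of all genes were. Counted by probe set, 9 of 69 were called, where 15.5% of all tested probe sets were. Of these 4 were higher and 5 lower in CD8α+ cells, where 7.75% and 7.79% of all were. The groups did not overlap for 35 of the 69, where 52.3% of all did not, and 17 of them were higher and 18 lower, where 26.1% and 26.2% of all were.

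**Figure D2:**
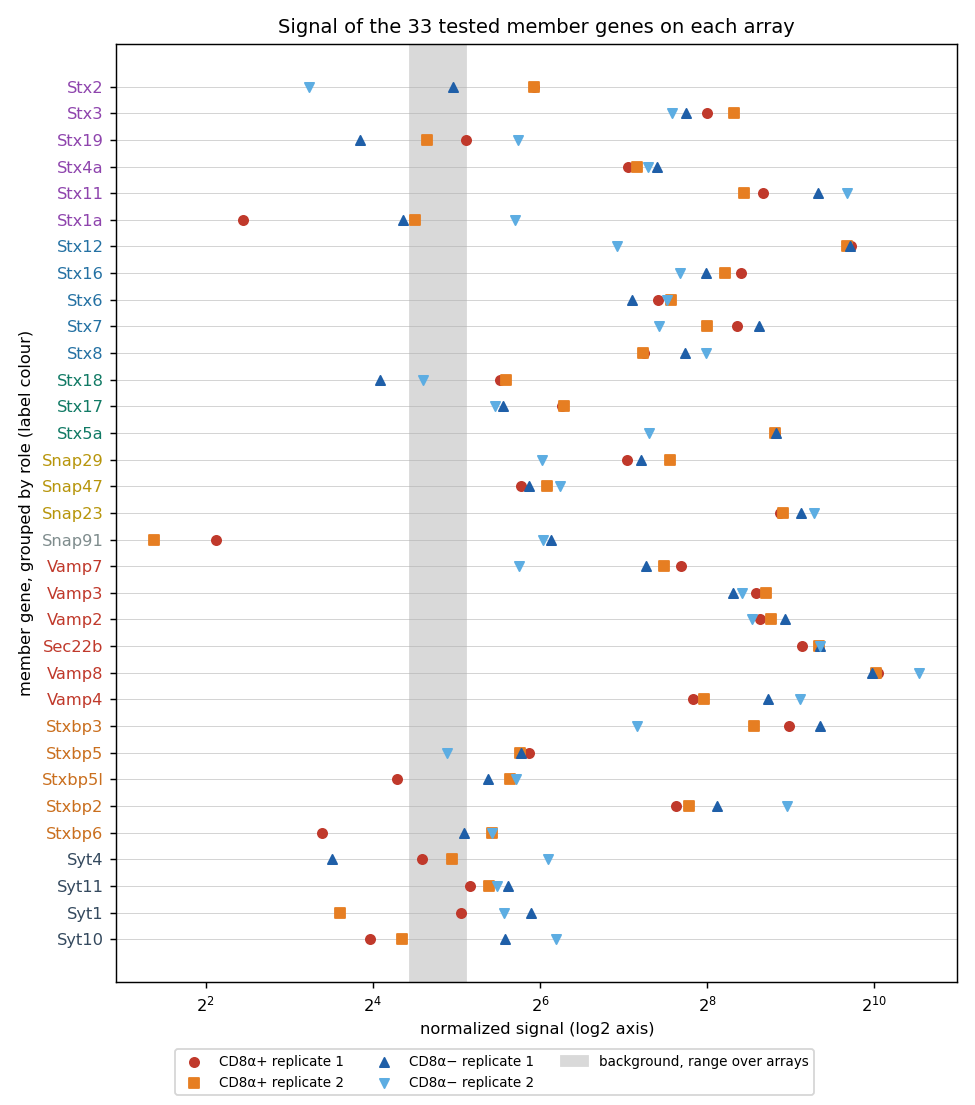
Normalized signal (log2 axis) of the 33 tested member genes on each array, 1 row per gene, red and orange for CD8α+ and blue for CD8α- replicates, with the range of background over arrays in grey. Syntaxin 11 and Vamp4 show both CD8α+ points left of both CD8α- points, and CD8α- replicate 2 stands alone to the left for Stx12, Stx5a, Vamp7 and Stxbp3.

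Among plasma membrane syntaxins, Stx2 was higher and Stx11 lower in CD8α+ cells, and the others were not called. Syntaxin 11 has no membrane-spanning segment and is known for the release of cytotoxic granules by natural killer and T cells. Stx11 read 406 and 346 in CD8α+ cells, against 644 and 819 in CD8α- cells. Both CD8α+ arrays were below both CD8α- arrays, and all 4 signals were over background. The difference was -0.95 ± 0.32, where ± gives the SE of the limma fit here and below, and the signal was 1.94-fold lower. The adjusted p was 0.259 and the unadjusted p 0.0352. Its other probe set gave 217 and 261 in CD8α+ cells, against 354 and 882 in CD8α- cells, a difference of -1.23. On the deposited scale and with median centring the Stx11 difference was 0.037 and 0.039, while the median gene stood at 0.66 and 0.67. Relative to the median gene it was -0.62 and -0.63. The call was also lost without either CD8α+ array (-1.07 and -0.84), with trimmed mean scaling and with a replicate block.

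Stx2, also called epimorphin, read 60.7 and 60.8 in CD8α+ cells, against 31.0 and 9.39 in CD8α- cells. The CD8α+ arrays were nearly equal and CD8α- replicate 2 was below background. The difference was 1.83 ± 0.64, with unadjusted p = 0.0407 and adjusted p = 0.273. It was 0.97 against CD8α- replicate 1 alone, and since replicate 2 was below background the size of the difference from it was not measured. The call was lost without either CD8α+ array (1.83 each time), on the deposited scale, with trimmed mean scaling and with no filter. Stx3, a syntaxin of apical membranes and secretory granules, read 255 and 320 in CD8α+ cells, against 214 and 191 in CD8α- cells. It was higher in both CD8α+ arrays, by 0.50 ± 0.31, and was not called (unadjusted p = 0.177). Stx3 is named after its values were seen, as are the other uncalled genes below that are neither Sec22b nor among the brightest members of their family. Stx4a, the widespread partner of Snap23 at the cell surface, differed by -0.24 ± 0.29. Stx19 differed by 0.086 ± 0.71, with 1 CD8α- array below background and the other above both CD8α+ arrays. The neuronal Stx1a differed by -1.37 ± 0.78, with 1 array below background in each group.

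Of the syntaxins of the early secretory pathway and autophagosome, all 3 had positive differences and Stx18 was called. Syntaxin 18 serves the return of vesicles to the endoplasmic reticulum. It read 45.8 and 48.2 in CD8α+ cells, against 16.9 and 24.2 in CD8α- cells, where neither array exceeded background. The groups did not overlap. The CD8α+ cells were at least 1.5-fold brighter, and the fitted difference was 1.22 ± 0.34, with unadjusted p = 0.0183 and adjusted p = 0.209. The call was lost with trimmed mean scaling (0.55, unadjusted p = 0.182), an intensity trend and without either CD8α+ array (1.25 and 1.18). At the stricter filter this probe set was too dim to test, and another stood for the gene (0.84, not called). The other 3 tested Stx18 probe sets gave differences of 0.50, 0.84 and 1.09, with overlapping groups on 2 of them. Stx17, which joins autophagosomes to lysosomes, read 76.7 and 77.7 in CD8α+ cells, against 46.9 and 44.1 in CD8α- cells. Both CD8α+ arrays were the brighter ones, and the difference was 0.76 ± 0.29. It was not called, with an adjusted p of 0.296 and an unadjusted p of 0.0511. The other tested Stx17 probe sets gave 0.10, with overlapping groups, and 0.54. Stx5a, the Golgi syntaxin, read 448 and 448 in CD8α+ cells, against 452 and 158 in CD8α- cells. Its difference of 0.75 ± 0.58 was -0.015 without CD8α- replicate 2.

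The endosomal and trans-Golgi syntaxins had no call among their 5 genes. Stx12, a recycling endosome syntaxin also named syntaxin 13, read 843 and 816 in CD8α+ cells, against 838 and 121 in CD8α- cells. On that probe set CD8α- replicate 2 stood apart from the other 3 arrays, and the difference was 1.38 ± 0.98 with all arrays and -0.014 without it. The second Stx12 probe set went the other way, with 182 and 220 in CD8α+ cells, against 249 and 383 in CD8α- cells. Stx7, a late endosome syntaxin, differed by 0.16 ± 0.51, with its CD8α- arrays on either side of the CD8α+ mean (-0.44 and 0.76), and its partner Stx8 by -0.62 ± 0.30. Stx16, which receives vesicles at the trans-Golgi, differed by 0.48 ± 0.31 with both CD8α+ arrays higher. Stx6, which shuttles between the trans-Golgi and endosomes, differed by 0.18 ± 0.32 on the probe set that stands for it (0.39 and -0.023 against either CD8α- array), and its 6 tested probe sets ranged from -0.68 to 2.32. Over all tested member probe sets, CD8α- replicate 2 lay more than 1 log2 unit below each other array in 13 of 69, or 18.8%, where it did in 11.5% of all probe sets. The part of RNA quality in these readings was not tested.

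Sec22b, the R-SNARE of the endoplasmic reticulum and Golgi, gave near-equal signals in the populations. Its brighter probe set read 562 and 649 in CD8α+ cells, against 652 and 654 in CD8α- cells. The second read 203 and 250 in CD8α+ cells, against 222 and 257 in CD8α- cells. On the first the CD8α- arrays lay slightly above both CD8α+ arrays, and on the second the groups overlapped. The differences were -0.11 ± 0.30 and -0.083 ± 0.33, and the first had a 95% interval of -0.90 to 0.67, so a change of almost 1 log2 unit downwards lies within it. On the deposited scale the first was 0.89, with the median gene at 0.66, and with trimmed mean scaling it was 0.083, with the median gene at -0.18.

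Vamp4 was the called member of the R-SNAREs and was lower in CD8α+ cells. VAMP4 acts in transport between endosomes and the trans-Golgi. It read 228 and 249 in CD8α+ cells, against 425 and 553 in CD8α- cells. Both CD8α+ arrays were the dimmer ones, and the difference was -1.02 ± 0.32, or 2.03-fold lower, with unadjusted p = 0.0272 and adjusted p = 0.238. A second probe set read 153 and 143 in CD8α+ cells, against 298 and 515 in CD8α- cells, a difference of -1.41. The third gave -0.41 with overlapping groups. On the deposited scale the difference of the first was -0.030, or -0.69 relative to the median gene there. The call was lost there, with median centring (-0.028), with a replicate block and without either CD8α+ array (-0.96 and -1.09).

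Vamp3 (cellubrevin, of recycling endosomes) was read by 5 tested probe sets that disagreed in size. The one that stands for the gene read 384 and 416 in CD8α+ cells, against 316 and 341 in CD8α- cells, a difference of 0.28 ± 0.29. Of the others, the brightest read 1513 and 1262 in CD8α+ cells, against 757 and 399 in CD8α- cells, a difference of 1.33 with unadjusted p = 0.0340. The next brightest read 1102 and 989 in CD8α+ cells, against 769 and 1454 in CD8α- cells, a difference of -0.019. The 5 probe sets thus gave no common size of difference, and both of these carry the _x_at ending that marks possible binding to other transcripts. Vamp7, of late endosomes and lysosomes, read 207 and 179 in CD8α+ cells, against 154 and 53.7 in CD8α- cells. Both CD8α+ arrays were higher, by 1.08 ± 0.59, and by 0.32 against CD8α- replicate 1 alone.

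Vamp8, the R-SNARE of late endosomes and of secretory granule release, read 1053 and 1035 in CD8α+ cells, against 1008 and 1485 in CD8α- cells. The groups overlapped and the difference was -0.23 ± 0.34, with a 95% interval of -1.14 to 0.68. Vamp2, the synaptic vesicle R-SNARE that other tissues also use, read 398 and 433 in CD8α+ cells, against 487 and 372 in CD8α- cells. Its difference was -0.036 ± 0.32 on this probe set, and 1.44 on a dimmer one where neither CD8α- array exceeded background. Vamp1 and Vamp5 were too dim to test, and Vamp5 exceeded background on no array.

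**Figure D3:**
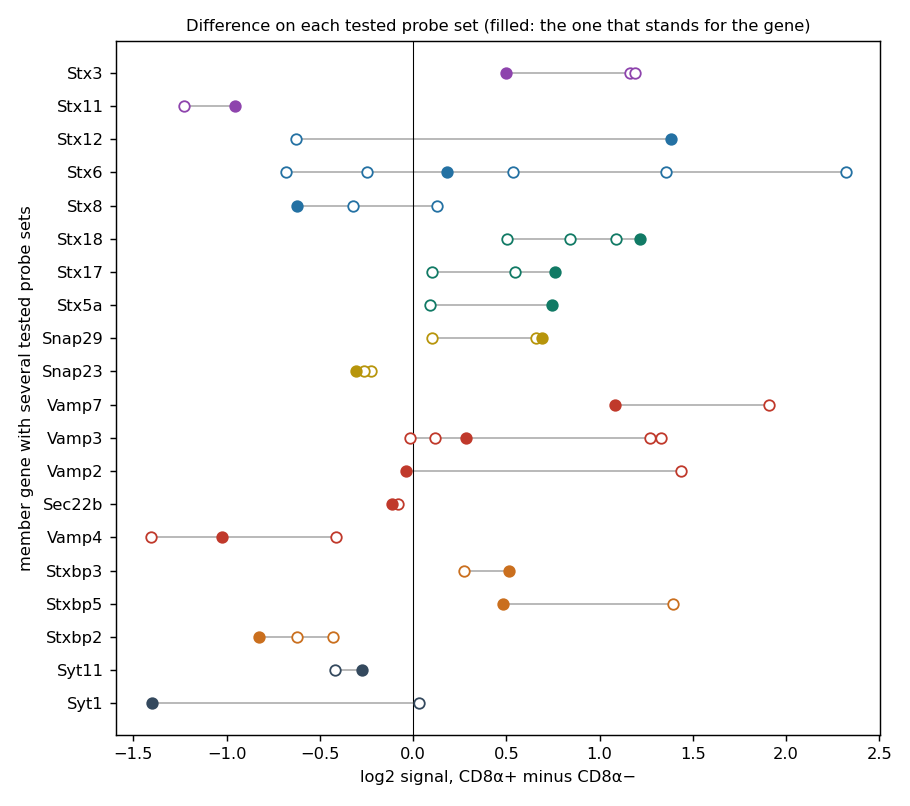
Difference in log2 signal, CD8α+ minus CD8α- (horizontal axis), on each tested probe set of the 20 member genes with several, filled for the probe set that stands for the gene. The sign was shared by all probe sets in 14 genes and differed in 6, which were Stx12, Stx6, Stx8, Syt1, Vamp2 and Vamp3.

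Snap genes showed no call. Snap23, the widespread Snap protein that pairs with plasma membrane syntaxins, read 470 and 481 in CD8α+ cells, against 557 and 622 in CD8α- cells. Both CD8α- arrays were the brighter ones, and the difference was -0.31 ± 0.29, with values of -0.31 to -0.23 on its 3 probe sets and a 95% interval of -1.09 to 0.47. Snap29, a partner of Stx17 on autophagosomes, read 132 and 187 in CD8α+ cells, against 147 and 64.8 in CD8α- cells. The groups overlapped, and its difference of 0.69 ± 0.52 was 0.096 without CD8α- replicate 2. Snap47 read 54.6 and 67.7 in CD8α+ cells, against 58.6 and 75.3 in CD8α- cells. The groups overlapped, with a difference of -0.13 ± 0.33, and the neuronal Snap25 was too dim to test. Snap91, the clathrin adaptor, read 4.36 and 2.61 in CD8α+ cells, against 70.2 and 65.6 in CD8α- cells. It was not above background in either CD8α+ array, so the CD8α- cells were at least 2.62-fold brighter. The fitted difference was -3.28 ± 0.29, with adjusted p = 0.0895 and unadjusted p = 0.000181. Both CD8α+ arrays had been raised to the floor of 6.99, which set their spread to 0. The other Snap91 probe set was above background on no array.

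Of the Stxbp genes, the Munc18 members Stxbp2 and Stxbp3 were read above background on all 4 arrays and neither was called. Stxbp2 encodes Munc18-2, the partner of syntaxin 11. It read 197 and 221 in CD8α+ cells, against 277 and 495 in CD8α- cells. The groups did not overlap, and the difference was -0.83 ± 0.40, with unadjusted p = 0.103 and a 95% interval of -1.91 to 0.25. Its other 2 probe sets gave -0.62 and -0.43. Without CD8α- replicate 2 the difference was -0.41. Stxbp3, which encodes the syntaxin 4 partner Munc18-3, read 504 and 376 in CD8α+ cells, against 652 and 143 in CD8α- cells. Its CD8α- arrays lay on either side of the CD8α+ arrays, and the difference of 0.51 ± 0.80 was -0.58 against the first alone and 1.61 against the second alone. Stxbp5 (tomosyn, an inhibitor of SNARE assembly) read 58.5 and 54.2 in CD8α+ cells, against 54.7 and 29.6 in CD8α- cells. Its CD8α- replicate 2 was below background, and the difference of 0.48 ± 0.41 was 0.041 against CD8α- replicate 1 alone. The other tested Stxbp5 probe set gave 1.39 with no overlap, and neither CD8α- array exceeded background on it. Stxbp5l (-0.58 ± 0.55) and Stxbp6 (-0.85 ± 0.75) each had 1 CD8α+ array within background, and Stxbp4 was above background on no array.

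Stx11 and Stxbp2 are also known from natural killer cells, and markers of other cell types were measured in the same RNA. The natural killer list (5 of 6 genes measured) summed to 645 and 748 in CD8α+ cells, against 1953 and 817 in CD8α- cells, and all 5 genes were above background on at least 1 array. Of these genes 3 (Ncr1, Gzma and Eomes) were lower in CD8α+ cells with no overlap, Klrk1 was higher and Prf1 overlapped. Gzma alone read 1555 of the sum on CD8α- replicate 1, and the defining marker Ncr1 read 2.30 and 24.3 in CD8α+ cells, against 31.7 and 40.6 in CD8α- cells. The T cell list (3 of 5) summed to 296 and 495 in CD8α+ cells, against 390 and 294 in CD8α- cells. Cd3g was higher and Cd3d lower in CD8α+ cells with no overlap, and Cd3e overlapped. The macrophage and monocyte list (6 of 7) summed to 2969 and 3093 in CD8α+ cells, against 5583 and 7595 in CD8α- cells. Of its 6 genes 5 were lower in CD8α+ cells with no overlap, among them Csf1r, which was also counted as a CD8α- lineage marker. Vcam1 was higher, with 324 and 384 in CD8α+ cells, against 38.8 and 103 in CD8α- cells. The B cell list (4 of 5) summed to 186 and 216 in CD8α+ cells, against 146 and 231 in CD8α- cells. The plasmacytoid list (5 of 5) summed to 981 and 1106 in CD8α+ cells, against 1540 and 2230 in CD8α- cells. Each had 1 gene higher and 2 lower in CD8α+ cells with no overlap. Most of the plasmacytoid sum was Tcf4, with 650 and 762 in CD8α+ cells, against 1198 and 1808 in CD8α- cells, while Siglech overlapped. For comparison with these lists, the groups did not overlap for 53.9% of all tested genes. The neutrophil list (4 of 5) summed to 6359 and 6963 in CD8α+ cells, against 12670 and 9220 in CD8α- cells. Its gene Elane was above background on no array. Their part in the lower Stx11, Stxbp2 and Vamp4 signals was not tested. Fewer cells of a type and less RNA per cell cannot be told apart in such bulk samples.

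The synaptotagmins that could be tested were 4 of 16. Syt10 read 15.6 and 20.3 in CD8α+ cells, not above background, against 47.7 and 73.2 in CD8α- cells. The CD8α- cells were at least 2.28-fold brighter, with a fitted difference of -1.73 ± 0.38, unadjusted p = 0.00763 and adjusted p = 0.156. Without CD8α+ replicate 1 the difference was -1.54 and was not called. Syt1, the calcium sensor of synaptic release, read 33.1 and 12.1 in CD8α+ cells, against 59.2 and 47.3 in CD8α- cells. The groups did not overlap on that probe set (-1.40 ± 0.57), but its other tested probe set gave 0.029. Syt11, which does not bind calcium and is known in macrophages to restrain phagocytosis, read 35.7 and 42.1 in CD8α+ cells, against 49.1 and 44.7 in CD8α- cells, a difference of -0.27 ± 0.30. Syt4 differed by -0.032 ± 0.92, with 1 CD8α- array below background and the other above both CD8α+ arrays. Syt7, a sensor of lysosome exocytosis, exceeded background on no more than 1 array on any of its 4 probe sets. The synaptotagmin-like genes encode Rab27 effectors and were too dim to test. Sytl4 read 37.1 and 14.5 in CD8α+ cells, against 2.10 and 1.86 in CD8α- cells, on its brighter probe set. Sytl2 read 2.07 and 23.3 in CD8α+ cells, against 14.9 and 5.07 in CD8α- cells. Sytl1 read 21.5 and 3.70 in CD8α+ cells, against 1.61 and 4.04 in CD8α- cells. Only 1 CD8α+ array each of Sytl4 and Sytl2 passed background on these probe sets.

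**Figure D4:**
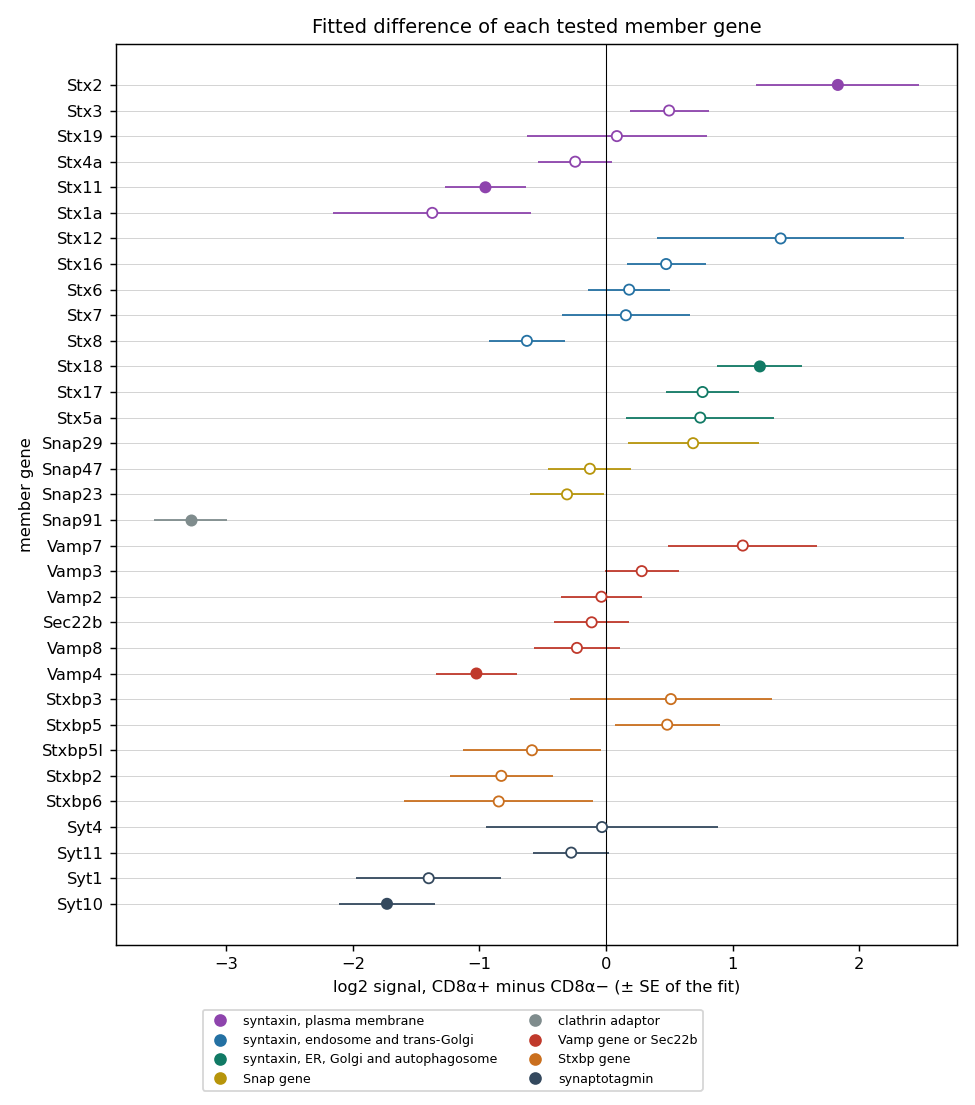
Fitted difference in log2 signal, CD8α+ minus CD8α- (horizontal axis), with bars of ± 1 SE, for the 33 tested member genes coloured by role and filled where the unadjusted p was under 0.05. The filled points are Stx2 and Stx18 to the right of 0 and Stx11, Vamp4, Syt10 and Snap91 to the left.

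Promoter windows are printed for the called SNAREs, since these genes carry the differences described above. RefSeq (GRCm38.p6) gave windows for 41 of the 52 member genes, each 300 bases long, with 250 before and 50 after the transcription start. Capitals mark matches, on either strand, to the GC box GGGCGG, the PU.1 core GAGGAA, the interferon-stimulated response element, the AP-1 site TGANTCA and the E-box CACGTG, and no match overlapped another in the windows printed. Stx2 lies at chr5:129008523-129008822 on the minus strand, Stx18 at chr5:38038980-38039279 on the plus strand, Stx11 at chr10:12964210-12964509 on the minus strand and Vamp4 at chr1:162570265-162570564 on the plus strand. Stx2 and Vamp4 have 2 windows each in that table, and the first is shown.
Stx2: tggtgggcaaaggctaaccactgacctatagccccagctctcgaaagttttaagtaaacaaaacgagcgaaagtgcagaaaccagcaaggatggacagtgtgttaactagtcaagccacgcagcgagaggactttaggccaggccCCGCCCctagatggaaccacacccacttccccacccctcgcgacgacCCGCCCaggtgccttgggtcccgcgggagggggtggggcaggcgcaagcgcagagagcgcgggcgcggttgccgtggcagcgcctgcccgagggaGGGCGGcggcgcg
Stx18: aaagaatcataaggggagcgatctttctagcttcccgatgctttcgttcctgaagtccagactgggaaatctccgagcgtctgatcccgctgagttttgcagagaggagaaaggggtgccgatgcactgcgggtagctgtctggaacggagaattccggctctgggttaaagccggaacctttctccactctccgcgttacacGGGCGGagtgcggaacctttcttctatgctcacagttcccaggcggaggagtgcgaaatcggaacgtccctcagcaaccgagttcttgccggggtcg
Stx11: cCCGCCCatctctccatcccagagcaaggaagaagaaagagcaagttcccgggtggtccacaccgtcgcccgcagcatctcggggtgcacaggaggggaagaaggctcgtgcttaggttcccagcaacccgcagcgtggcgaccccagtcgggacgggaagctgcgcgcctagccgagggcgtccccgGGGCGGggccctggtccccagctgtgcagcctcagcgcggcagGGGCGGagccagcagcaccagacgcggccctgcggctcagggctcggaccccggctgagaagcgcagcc
Vamp4: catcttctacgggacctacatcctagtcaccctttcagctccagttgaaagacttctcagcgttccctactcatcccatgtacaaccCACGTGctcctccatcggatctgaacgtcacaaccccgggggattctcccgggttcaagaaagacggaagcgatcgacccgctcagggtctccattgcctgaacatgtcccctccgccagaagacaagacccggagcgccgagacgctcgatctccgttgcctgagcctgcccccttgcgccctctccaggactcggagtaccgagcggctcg

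The GC box stood in Stx2 and Stx11 with 3 matches each and in Stx18 with 1, and the printed Vamp4 window held 1 E-box. The second Vamp4 window held 3 GC boxes and 1 PU.1 core, and the second Stx2 window 1 PU.1 core. Over the first window of each gene, the GC box was found in 68.3% of the 41 members and 35.9% of 27025 genes. Those 27025 are all genes with a RefSeq window, not the genes measured on the array, so the shares compare unlike sets. The PU.1 core was found in 24.4% of members and 28.3% of all genes, and the E-box in 12.2% of members and 7.24% of all genes. The response element was found in 4.88% of members and 3.49% of all genes, and the AP-1 site in 2.44% of members and 7.93% of all genes. A match is a description of these letters only.

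Of 44 other membrane fusion genes, 30 could be tested, and 2 were called at an unadjusted p under 0.05, both higher in CD8α+ cells. Both encode extended synaptotagmins, which tether the endoplasmic reticulum to the plasma membrane. Esyt3 read 191 and 210 in CD8α+ cells, against 22.3 and 2.30, not above background, in CD8α- cells. The CD8α+ cells were at least 6.42-fold brighter, with a fitted difference of 4.01 ± 0.63, unadjusted p = 0.00212 and adjusted p = 0.105. Esyt3 was bright enough to test only through its CD8α+ arrays. Esyt2 read 726 and 596 in CD8α+ cells, against 376 and 339 in CD8α- cells. Its groups did not overlap and the difference was 0.88 ± 0.31, with unadjusted p = 0.0392 and adjusted p = 0.269. None of the 11 other SNAREs was called. They ranged from -0.94 for Use1, of the endoplasmic reticulum, to 1.69 for Sec22c, whose CD8α- replicate 2 read 9.39. The disassembly ATPase Nsf (-0.17 ± 0.44) and its adaptors Napa (-0.28 ± 0.37) and Napg (-0.41 ± 0.31) were not called. The tested Sec1/Munc18 relatives ranged from -0.52 (Scfd2) to 0.72 (Vps45), and the granule priming factor Unc13d differed by -0.41 ± 0.34. The share of this list called was 6.67%, where 16.9% of all genes were.

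**Figure D5:**
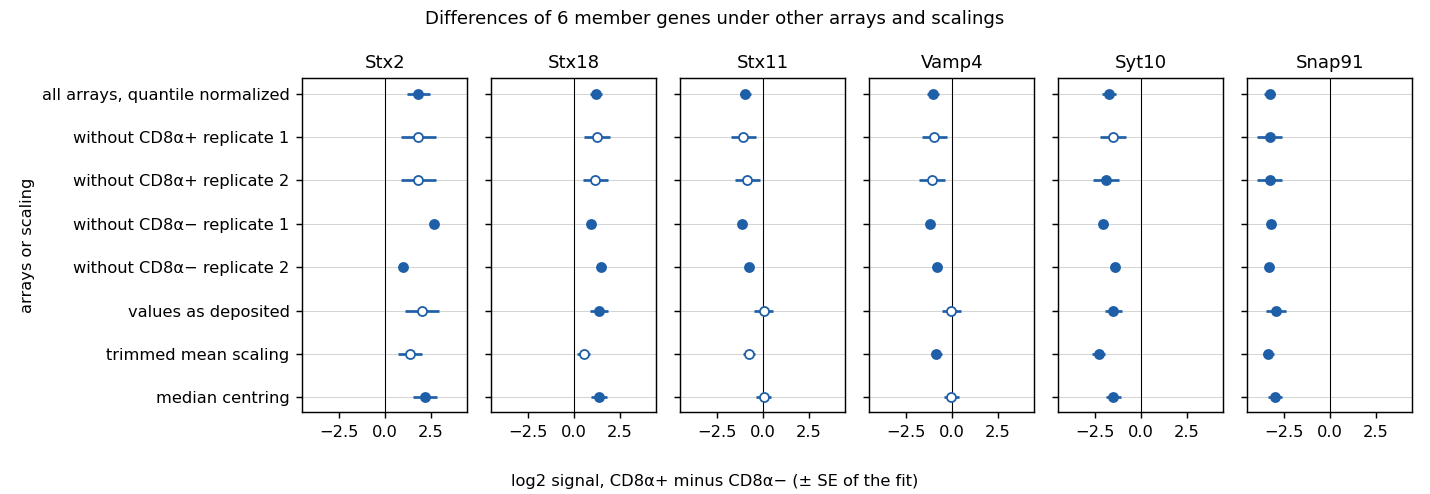
Difference in log2 signal, CD8α+ minus CD8α- (horizontal axes, ± SE), of the 6 called member genes with all arrays, without each array in turn and under 3 other scalings, filled where the unadjusted p was under 0.05. Snap91 was filled under each setting shown, and Stx11 and Vamp4 moved to near 0 on the deposited scale and with median centring.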

How the data were processed

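The authors deposited intensity values, 1 MAS5 signal per probe set and array on a linear scale, per the submitters' processing notes in the labels. Per the series' design text the software was Microarray Suite 5.0. A scaling target was not found in the labels. The labels and the design text describe the RNA work differently, as Trizol with cRNA and as RNeasy with amplified cDNA. Gene symbols came from the array annotation, and 3 probe sets with several symbols, among them those of Sytl3, were left out. Signals were quantile normalized on the log2 scale, raised to a floor of 6.99 and log2 transformed. Probe sets with a mean signal of at least 23.0, the median probe set, were tested, and a gene was represented by its brightest tested probe set, leaving out names ending in _x_at where it had another. Differences were fitted in R 4.3.3 by limma 3.58.1 (lmFit, eBayes, two-sided, Benjamini-Hochberg adjustment over all features). The fit was checked on simulated data, in which each probe set had the same spread on all arrays and no floor. That check does not cover the unequal spread and the floored values of these arrays. An exact permutation test of 2 arrays against 2 cannot reach 0.05 and was not used. "At least" folds take the higher of background and own signal as the dim group's level. Full values are given for Sec22b, for members with unadjusted p under 0.05 and for the 3 brightest genes of each family. The members and lists were chosen with earlier results of these data known. The alternatives covered scaling, filter, floor, variance trend, replicate block, probe set choice and each array left out. The number of arrays limits the precision. Python 3.11.15 with pandas 2.3.3 prepared the tables.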

Additional observations from a re-analysis of the deposited data

How the results depend on the processing

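At an unadjusted p under 0.05, 6 member genes were called. The count was 3 on the deposited scale, where 13.8% of all genes were called, 13 with median centring (11 higher in CD8α+ cells, 34.8% of all genes) and 2 at the stricter filter (20 members tested, 20.3% of all genes). The 9 member probe sets called became 21 with median centring and 4 at the stricter filter. Of all tested probe sets 30.5% and 19.5% were called there. The 2 other fusion genes called became 5 with median centring, 4 with an intensity trend and 4 with the mean of all tested probe sets. In those settings 34.8%, 17.8% and 19.0% of all genes were called. The median member difference of -0.036 became 0.76 on the deposited scale and 0.68 with median centring, where the median gene stood at 0.66 and 0.67. Over all genes, the calls higher and lower in CD8α+ cells were 796 and 989, against 1192 and 263 on the deposited scale, 681 and 1828 with trimmed mean scaling and 3165 and 486 with median centring.

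Leaving out 1 array gave 2 to 17 member genes, 2 to 31 member probe sets, 1 to 13 other fusion genes and medians of -0.21 to 0.028. In these fits the lone array of a group borrows its spread from the other group. The 17 genes came without CD8α- replicate 1, where 46.1% of all genes were called, and the 2 without CD8α+ replicate 1, where 5.99% were. Among the settings that kept all arrays, Snap91 was the only member called at an adjusted p under 0.05. Other members passed that threshold only without CD8α- replicate 1, where the lone CD8α- array has no spread of its own. Snap91 was called with a replicate block, trimmed mean scaling and median centring. Over all genes, those settings called 76 higher and 71 lower, 41 higher and 107 lower, and 425 higher and 76 lower. At an unadjusted p under 0.05, the replicate block called 6 member genes, without Stx11 and Vamp4, and 13 member probe sets. It called 17.3% of all genes and 16.1% of all probe sets. Whether same-numbered arrays were paired is not given in the labels. Their deviations from the group means correlated at 0.031 over probe sets. With 2 arrays per group this cannot exclude a shared batch.

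Signs turned on the deposited scale and with median centring for Stx11 (0.037 and 0.039), Snap23 (0.70 and 0.71), Snap47 (0.40 and 0.40), Stxbp2 (0.14 and 0.15), Vamp8 (0.66 and 0.66), Sec22b (0.89 and 0.90) and Vamp2 (0.97 and 0.97). Relative to the median gene, Stx11 (-0.62 and -0.63), Snap47 (-0.26 and -0.27) and Stxbp2 (-0.51 and -0.52) did not turn. With trimmed mean scaling Sec22b was at 0.083 and Vamp2 at 0.16, and with the mean of its probe sets Vamp2 was at 0.70. With 1 array left out, the range was -0.31 to 0.054 for Snap47, -0.58 to 1.61 for Stxbp3, -0.51 to 0.050 for Vamp8, -0.23 to 0.16 for Vamp2, -0.014 to 2.78 for Stx12 and -0.015 to 1.51 for Stx5a. The sign against either CD8α- array also differed for Stx7, Stx19, Syt4 and Stx6. Other than the scale shift of all genes, the cause was not tested. Snap91 was called in 13 of 13 alternatives, Syt10 in 12 of 13, Stx2 in 8 of 13, Stx18 and Vamp4 in 9 of 14 and Stx11 in 8 of 14. At the stricter filter Snap91, Syt10 and Stx2 were too dim to test. The Stx18 probe set was too dim there as well, and its count rests on another, an _x_at probe set (0.84, not called). Snap91, Syt10, Stx2 and Stx18 were tested only through their brighter group, so their counts are no independent support for a difference. Vamp4 was near 0 on the deposited scale and with median centring.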
